A study of Mus musculus with 12 samples.

Results

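Interferon-induced genes were described in single cells of the mouse joint. The set was a fixed list of 43 genes, and members were the rows of the deposited gene tables whose symbol was on the list. Of the 43 genes, 42 had a row among the 27998 genes of each table. Mx2 was not analysed here. Interferons are secreted proteins that signal through cell surface receptors and Janus kinases. Type I interferons act mainly through the interferon-stimulated response element (ISRE), to which a complex with STAT2 and IRF9 binds, and interferon gamma acts mainly through the gamma-activated site (GAS). The induced genes encode antiviral effectors, GTPases, transcription factors, sensors of foreign RNA and DNA, regulators and chemokines, and a low level of many of them is present in resting tissue.

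Stromal cells of the hind limb joints were taken from male wild-type C57BL/6 mice of 8 to 10 weeks with serum transfer-induced arthritis (STIA). In this model the serum of K/BxN mice, which carries arthritogenic antibodies, is given to healthy animals, so that joint inflammation is passive and fades without further treatment. Treated mice received 100 µl of serum intravenously and were sampled at the peak (day 7 to 9), when resolving (day 15) or when resolved (day 22), and mice at rest (day 0) received none. Each of these 4 stages had 3 libraries, each library pooled the joints of 3 animals, and live CD45-negative cells were sorted, so most blood-derived cells were removed before droplet capture. The 12 libraries held 21042 cells, of which 20060 passed the limits on genes and unique molecular identifiers (UMIs), and no barcode sequence of these was shared between libraries. Every library had a median of 5358 UMIs per deposited cell.

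The libraries did not group by stage. Barcode suffixes 1 to 12 fell into 4 runs of 3 consecutive numbers (1 to 3, 4 to 6, 7 to 9 and 10 to 12), and each run held 3 different stages. By the correlation of fibroblast expression over 11424 genes, the nearest library belonged to the same run for 11 of the 12 libraries and to the same stage for 1. What the suffix runs stand for is not given in the sources used here. Whether they are batches, or whether stage labels and libraries were mixed up, cannot be told apart here, which bears on every value given by stage. Values below are therefore given for libraries labelled rest, peak, resolving or resolved, and the runs are compared as well.

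Cells were clustered without the members and without other interferon genes, so that the members did not decide which cells were put together. The 25 clusters gave 9737 fibroblasts, 1767 vascular endothelial, 186 lymphatic endothelial, 655 perivascular, 1373 osteoblast, 312 chondrocyte, 1755 tenocyte, 644 proliferating and 399 muscle cells, each named by resemblance to its markers. Small groups of immune (112 cells), Schwann (109) and erythroid cells (61) were described without a test, and 2950 cells stayed unnamed. The unnamed cells formed clusters 3, 12 and 17, with 7, 7 and 6 fibroblast markers detected. Of the 1507 cells of cluster 3, 92.7% came from the libraries of run 7 to 9. These fibroblast-like cells were left out of the fibroblasts, except in an alternative with fibroblasts defined more broadly, so fibroblast levels and run comparisons depend on this choice. Levels are UMI counts scaled to a common library total (counts per 1000000, CPM) of the summed cells of one type in one library. CPM compares a gene between cell types, and the method reads transcript ends, so length was not corrected for.

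The 42 members lay on 16 chromosomes and gathered 323829 UMIs. Ifitm3, a membrane protein that blocks virus entry, made up 61.6% of these, so the sum of members is given below without it. Neighbouring members share sequence or overlap, which can affect their counts, and the size of this effect was not examined. Igtp (chr11:58199556-58207591) overlaps Irgm2 (chr11:58199618-58222782) on the plus strand of mm10, and Ifi203 (chr1:173920407-173942672, minus strand) overlaps Mndal. The Ifit genes on chromosome 19, the Gbp genes on chromosome 3 and the Ifi200 genes on chromosome 1 are further families of related sequence.

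The windows just upstream of the members were searched for the letters of both elements. In the RefSeq promoter windows of GRCm38.p6, from 250 bases before to 50 bases after the start, 34 of the 43 members had an entry. The letters GAAANNGAAA of the ISRE core, searched on both strands, were present in 20 of these 34 members (58.8%) and in 3.99% of all 27025 genes. The letters TTCNNNGAA of the GAS, which read the same on both strands, were present in 10 members (29.4%) and in 9.55% of all genes. Both were present in 7 members (20.6%) and in 0.614% of all genes. A match of letters is a description of the window and does not show that a factor is bound there. The stretches below, printed in the direction of the gene with the matching letters in capitals, belong to members on which the results turn. The first 4 are of antiviral effectors and hold ISRE letters.

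Isg15: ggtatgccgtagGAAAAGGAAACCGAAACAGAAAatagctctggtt

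Ifit1: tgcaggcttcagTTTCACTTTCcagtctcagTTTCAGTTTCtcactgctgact

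Ifit3: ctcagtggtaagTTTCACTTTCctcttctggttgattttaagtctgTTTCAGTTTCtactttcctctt

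Rsad2: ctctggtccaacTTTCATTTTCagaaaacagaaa

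These stretches lie at chr4:156200863-156200908 (minus strand), chr19:34640773-34640825 (plus), chr19:34583361-34583428 (plus) and chr12:26456551-26456584 (minus). The matches of Isg15 run into each other, whereas those of Ifit1 and Ifit3 stand apart. The next stretches are of GTPases and of Irf1. Those of Igtp and Irgm2, which combine GAS and ISRE letters, are shown because the copies are nearly identical.

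Gbp2: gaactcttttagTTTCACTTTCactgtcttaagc

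Igtp: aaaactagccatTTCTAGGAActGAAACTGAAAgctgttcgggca

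Irgm2: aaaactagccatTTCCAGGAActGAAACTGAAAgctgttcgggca

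Irf1: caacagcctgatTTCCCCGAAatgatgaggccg

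They lie at chr3:142620592-142620625, chr11:58199499-58199543, chr11:58214890-58214934 and chr11:53769912-53769944, all on the plus strand. Over 45 bases the Igtp and Irgm2 stretches differ at 1 position, T16C, counted from the 5′ end of the printed stretch with the base of Igtp first. Irf1, the interferon gamma-responsive activator of GTPase and chemokine genes, holds GAS letters and no ISRE letters in its window. The last stretch, at chr1:174031868-174031901 on the minus strand, is of Ifi205, shown because its level ran against that of most members.

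Ifi205: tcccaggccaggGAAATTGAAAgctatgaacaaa

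Among the cell types with sums in at least 6 libraries, vascular endothelial cells held the highest mean level of 35 of the 42 members. This ranking was made for members only, and the share of all genes highest in these cells is not known. Schwann, immune and erythroid cells had fewer libraries and were not ranked. Some members were higher in the pooled Schwann or erythroid cells than in the pooled vascular endothelial cells. In vascular endothelial cells the summed level without Ifitm3 ran from 2250 to 5869 CPM over the 12 libraries, with a median of 3968 CPM. In fibroblasts it ran from 808 to 1090 CPM, with a median of 911 CPM, so that the 2 cell types did not overlap. Among the ranked types, perivascular cells followed at 1534 ± 353 CPM (SD, n = 12) and lymphatic endothelial cells at 1047 ± 257 (n = 10). Fibroblasts were at 934 ± 107 (n = 12) and osteoblasts at 829 ± 284 (n = 12). The spreads of the lymphatic, fibroblast and osteoblast sums overlap, and their order is not separated. Muscle cells (533 ± 338, n = 9), proliferating cells (532 ± 162, n = 6) and tenocytes (525 ± 146, n = 12) lay close together, and chondrocytes were lowest at 259 ± 110 (n = 8). Fewer UMIs per cell and fewer expressing cells cannot be told apart in such sums, and per-cell counts are given further on.

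**Figure D1:**
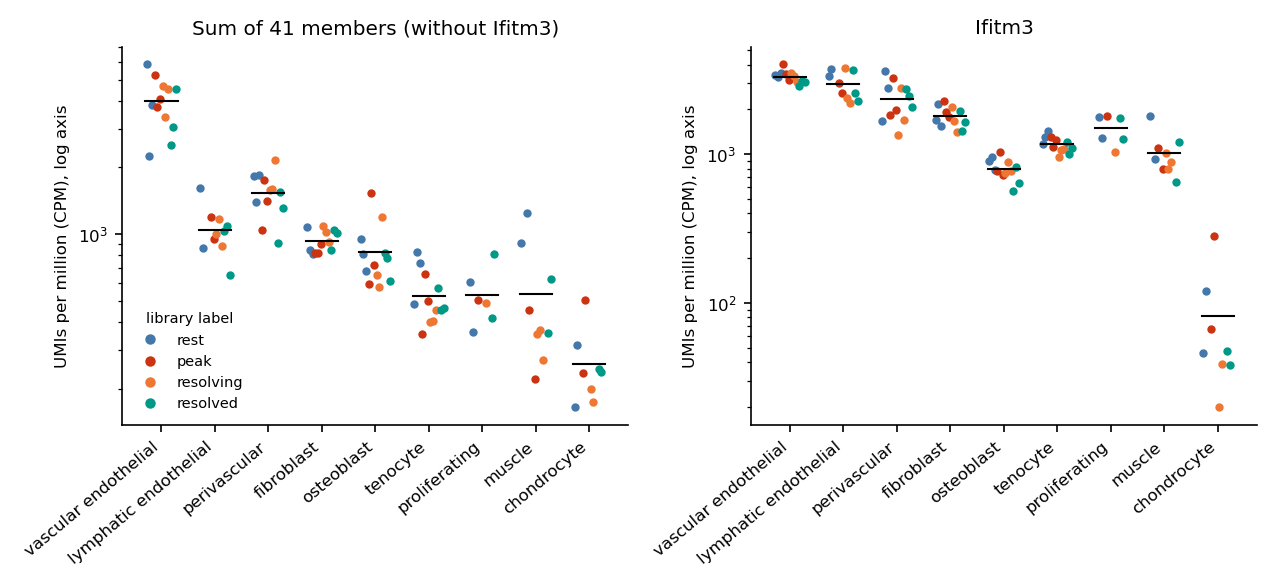
Summed level of 41 members without Ifitm3 (left) and level of Ifitm3 alone (right) in CPM on a log axis, by cell type; each point is 1 library coloured by its stage label and each bar the mean. Vascular endothelial cells sit at 2250 to 5869 CPM on the left, above every fibroblast sum, whereas on the right chondrocytes stand apart with a mean of 82.1 CPM.

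In vascular endothelial cells against fibroblasts, 35 of 37 tested members were higher and 2 were lower by edgeR's quasi-likelihood test, fitted over 8626 genes with the library as a block (adjusted p under 0.05 and a log2 fold change over 0.5). The background was high, since 54.3% of all tested genes passed in either direction, with 28.9% higher and 25.4% lower. The median log2 fold change of the tested members was 2.48, beside 0.06 over all tested genes. Of the 35 members that rose, 31 were higher in the endothelial sum in 12 of 12 libraries. Oasl1, Oas1a, Mx1, Dhx58 and Zbp1 did not pass the filter on low counts and were not tested. That filter can keep a gene for its level in 1 cell type. The tested set, its counts and its median can therefore lean towards members high in endothelial cells. Pooled, Zbp1 was lower in endothelial cells (4.84 CPM) than in fibroblasts (13.4 CPM, 842 UMIs), whereas Oasl1, Oas1a and Dhx58 were higher.

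The antiviral effectors were among the clearest, with 12 of 12 tested members higher. Rsad2, which encodes viperin, an enzyme that makes a chain-terminating nucleotide, had 60.2 CPM in the lowest, 140 in the median and 190 in the highest endothelial library. In fibroblasts it ran from 0 over 1.39 to 8.40 CPM. Its libraries did not overlap, with a log2 fold change of 5.64 ± 0.23 (SE). Isg15, a ubiquitin-like protein that is conjugated to other proteins, ran from 188 over 368 to 624 CPM in endothelial cells and from 12.4 over 21.9 to 53.1 CPM in fibroblasts, with a log2 fold change of 3.61 ± 0.24. Ifit1, which binds viral RNA lacking host cap methylation, ran from 26.5 over 154 to 285 CPM against 4.31 over 12.1 to 37.0 CPM. Its lowest endothelial library lay inside the fibroblast range, and within each library the endothelial sum was higher in 12 of 12. The log2 fold change of Ifit1 was 3.24 ± 0.25, that of its relative Ifit3 2.26 ± 0.24, and that of Ifit2 1.93 ± 0.19. Ifi44 reached 3.99 ± 0.32, and Cmpk2, a mitochondrial nucleotide kinase encoded beside Rsad2, 3.52 ± 0.22.

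Bst2, or tetherin, which holds budding virus at the cell surface, ran from 408 over 491 to 650 CPM in endothelial cells and from 32.9 over 76.2 to 172 CPM in fibroblasts, without overlap. The log2 fold change was 2.48 ± 0.18. Ifitm3 differed least among the effectors, at 3326 ± 303 CPM against 1799 ± 284 CPM (SD, n = 12) with a log2 fold change of 0.67 ± 0.13.

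All 8 GTPases were higher in endothelial cells. These proteins are induced by interferon gamma and act on the vacuoles of intracellular microbes. Iigp1 showed the largest difference of any member, at 209 CPM in the lowest, 421 in the median and 740 in the highest endothelial library against 1.04, 6.46 and 15.3 CPM in fibroblasts. Its log2 fold change was 5.89 ± 0.25, followed among the GTPases by Ifi47 at 4.24 ± 0.25, a gene that overlaps Olfr56 on the same strand. Gbp2 ran from 58.2 over 143 to 221 CPM against 15.1 over 20.8 to 32.5 CPM, and its log2 fold change was 2.54 ± 0.15. Igtp ran from 18.2 over 52.4 to 87.4 CPM against 3.24 over 5.96 to 9.86 CPM, with a log2 fold change of 2.91 ± 0.18. Neither gene overlapped between the cell types. For Igtp and its neighbour Irgm2, which share the promoter letters printed above, the second value was lower at 2.09 ± 0.25.

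The 4 transcription factors were all higher. Irf1 ran from 221 over 471 to 745 CPM in endothelial cells and from 45.7 over 68.5 to 186 CPM in fibroblasts, with a log2 fold change of 2.05 ± 0.18. Irf7, which amplifies type I interferon production, ran from 42.3 over 96.5 to 183 CPM against 7.05 over 13.6 to 24.0 CPM, with a log2 fold change of 2.68 ± 0.18. Irf9 and Stat2, whose products act on the ISRE, reached 2.11 ± 0.14 and 1.45 ± 0.18. The cytosolic RNA sensors Ifih1 (MDA5) and Ddx58 (RIG-I) rose by 1.65 ± 0.19 and 1.47 ± 0.18. The regulators Trim25 (3.25 ± 0.18) and Parp14 (3.35 ± 0.16) rose more than Usp18 (0.90 ± 0.22), the protease that removes ISG15 and damps the type I receptor.

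The chemokines, which draw T cells through the receptor CXCR3, were higher too. Cxcl9 ran from 7.13 over 28.0 to 85.3 CPM in endothelial cells and from 0.282 over 2.51 to 12.1 CPM in fibroblasts, with a log2 fold change of 3.29 ± 0.34. Cxcl10 ran from 73.1 over 146 to 288 CPM against 34.1 over 74.1 to 97.8 CPM, and its log2 fold change was 0.97 ± 0.28. Each was higher in 11 of 12 libraries, and the ranges overlapped.

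The 2 members that fell both belong to the Ifi200 family of nuclear DNA-binding proteins. Ifi205 was almost absent from endothelial cells, at 0 in the lowest, 4.91 in the median and 18.5 CPM in the highest library, and ran from 142 over 223 to 390 CPM in fibroblasts. Its log2 fold change was -5.56 ± 0.29. Ifi204 fell by 1.70 ± 0.17 on the log2 scale, from 89.4 ± 20.4 to 32.8 ± 13.4 CPM (SD, n = 12). Their neighbour Ifi203 went the other way, at 156 ± 40 CPM in endothelial cells and 40.0 ± 8.8 in fibroblasts, with a log2 fold change of 1.74 ± 0.14. The largest adjusted p of the 37 called members, for Cxcl10, was 0.00178 (edgeR, Benjamini-Hochberg adjustment).

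**Figure D2:**
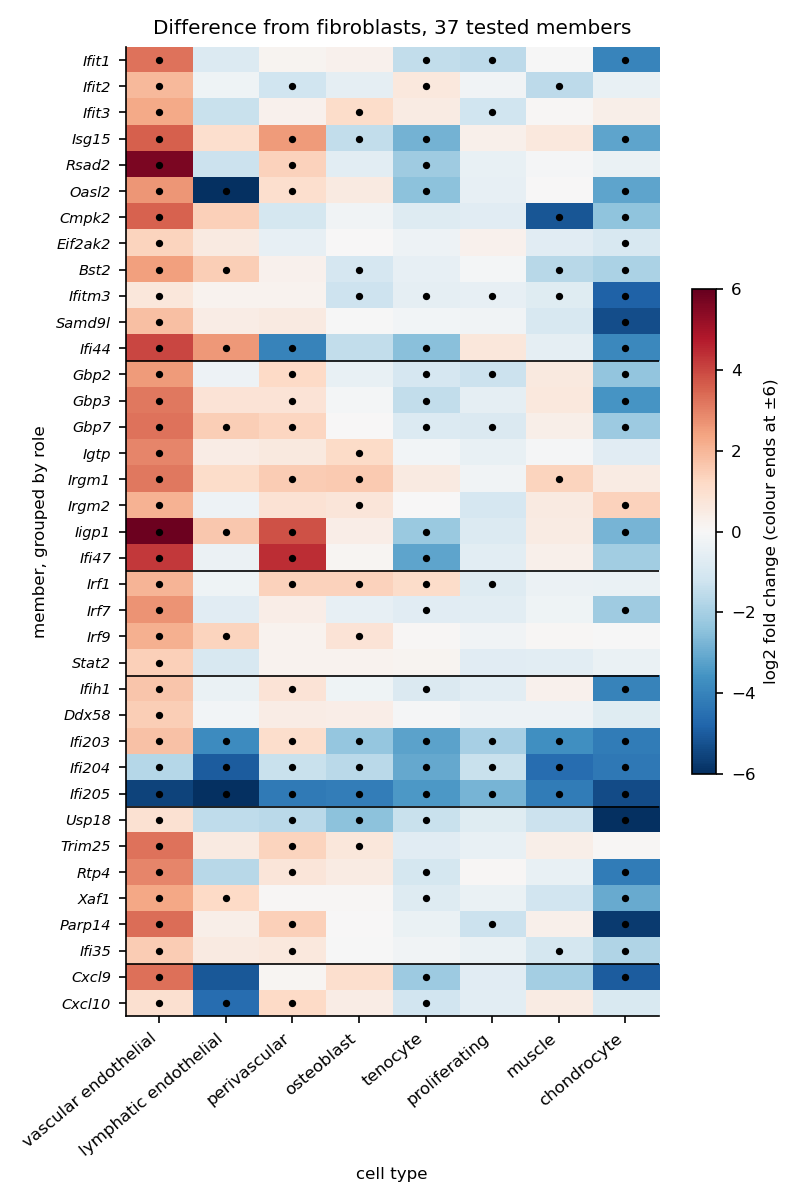
Log2 fold change of 37 tested members (rows, grouped by role) in 8 cell types against fibroblasts (columns), with a black dot where the member passed the test; a member at 0 in every library of a type, such as Oasl2 in lymphatic endothelial cells, has a fitted value that is no measure of size. Vascular endothelial cells show 35 members higher, and the Ifi205 row is lower in every column.

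The rest of the pathway was examined with lists of other genes. Of 21 interferon genes in the tables, 4 had any UMI, 32 UMIs in all among 20060 cells. Ifnz had 27, Ifng 3, Ifnb1 1 and Ifnab 1, and none could be tested. Of 6 receptor genes, 5 were tested in endothelial cells against fibroblasts and 3 were higher (Ifnar1 by 0.83 ± 0.13, Ifngr1 by 0.91 ± 0.12 and Il10rb by 1.72 ± 0.13 on the log2 scale). Of 7 tested kinases and signal factors 5 were higher, among them Irf8 at 3.93 ± 0.20. Of the 4 tested adaptors and sensors 3 were higher, with Mb21d1 (cGAS) at 2.60 ± 0.22 and Tmem173 (STING) at 1.81 ± 0.16. Of 4 feedback inhibitors Socs3 was higher (0.85 ± 0.18) and Socs1 lower (-0.66 ± 0.19).

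Genes of tissue dissociation and immediate early response were also higher in endothelial cells, where the sum of 20 such genes was 36297 ± 10357 CPM against 21448 ± 4130 CPM in fibroblasts (SD, n = 12). In that list 9 of 20 genes were higher and 1 was lower. Immune cell markers (8 genes) summed to 28.7 ± 25.7 CPM in endothelial cells and to 8.27 ± 4.30 CPM in fibroblasts, and Ptprc, which encodes CD45, was 0.334 and 0.0596 CPM on average. The part of these genes in the members' difference was not tested.

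Within the vascular endothelium the members were higher in cluster 9, led by Timp4, Gpihbp1 and Cd36, than in cluster 16, led by Plvap, Selp and Lrg1. The mean level was higher in cluster 9 for 39 of 42 members. The share of all genes that were higher in cluster 9 was not computed, so this count has no background. It includes members with nearly equal means, such as Dhx58 (5.75 and 5.65 CPM, higher in cluster 9 in 5 of 12 libraries). The sum without Ifitm3 was 5961 ± 1073 CPM against 2726 ± 752 CPM (SD, n = 12) and was higher in 12 of 12 libraries. Isg15 was 616 ± 190 and 220 ± 108 CPM, Rsad2 234 ± 65 and 82.3 ± 31.5 CPM, and Ifit1 301 ± 163 and 75.7 ± 57.0 CPM, each higher in cluster 9 in 12 of 12 libraries. Cells with 3 or more of the 10 antiviral members counted below were 34.1% of cluster 9 at a median of 2719 UMIs and 17.1% of cluster 16 at a median of 4555 UMIs. These are descriptions of clusters, with no test.

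Perivascular cells, which wrap small vessels, held 17 members that were higher than in fibroblasts and 5 that were lower (background 41.7%, median log2 fold change 0.60 beside -0.03 over all genes). The GTPases led, with 6 of 8 higher. Ifi47 was 73.9 ± 60.3 CPM against 2.47 ± 1.14 CPM (SD, n = 12) and higher in 12 of 12 libraries, with a log2 fold change of 4.44 ± 0.30, and Iigp1 followed at 3.84 ± 0.29 and Isg15 at 2.53 ± 0.26. Irf1 (1.40 ± 0.19), Gbp2 (1.19 ± 0.21) and Cxcl10 (1.20 ± 0.31) passed too. The test was not passed by Ifit1 (0.16 ± 0.44), Ifit3 (0.24 ± 0.42), Irf7 (0.42 ± 0.31), Bst2 (0.27 ± 0.21), Ifitm3 (0.22 ± 0.13), Igtp (0.60 ± 0.35) and Cxcl9 (0.13 ± 0.73). Ifi205 (-4.24 ± 0.31), Usp18 (-1.64 ± 0.45) and Ifi204 (-1.35 ± 0.20) were lower. Ifi44 was at 0 in all perivascular libraries, at least 1.41-fold lower by the limit of 3 counts over the group.

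Lymphatic endothelial cells (10 libraries, 186 cells) held 6 members higher and 5 lower (background 40.9%). Another scaling moved this split. With RLE size factors 10 members were higher and 5 lower, and the median of all genes shifted by 0.29 on the log2 scale, with 56.5% rather than 37.4% of all called genes higher. Bst2 was 330 ± 123 CPM against 89.9 ± 47.9 CPM and higher in 10 of 10 libraries, with a log2 fold change of 1.48 ± 0.23, followed among the consistent members by Gbp7 (1.45 ± 0.39) and Irf9 (1.35 ± 0.32). Isg15 (0.99 ± 0.47) and Ifitm3 (0.21 ± 0.14) passed with RLE size factors only. Values that passed neither were 0.45 ± 0.58 for Igtp, -0.24 ± 0.28 for Irf1 and -0.30 ± 0.44 for Gbp2, both of which turned positive with RLE size factors, and -0.66 ± 0.63 for Irf7, -0.83 ± 0.89 for Ifit1 and -1.33 ± 0.97 for Ifit3. Ifi205 had no UMI in any lymphatic library and was at least 57.4-fold lower than in fibroblasts, and Oasl2, also at 0, at least 1.63-fold lower. Cxcl9 had no UMI there either, and its low level in fibroblasts gives no fold. Cxcl10 fell by 4.57 ± 1.11 and Ifi204 by 4.98 ± 0.54 on the log2 scale.

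In osteoblasts 7 members were higher and 7 lower than in fibroblasts (background 32.0%). Irgm1 (1.55 ± 0.24), Irf1 (1.40 ± 0.18) and Igtp (1.17 ± 0.23) were higher in 12 of 12 libraries, and Ifit3 (1.11 ± 0.27) in 11. Ifi205 (-4.17 ± 0.25), Usp18 (-2.47 ± 0.36) and Ifi203 (-2.31 ± 0.22) were lower in 12 of 12. Isg15 (-1.47 ± 0.35), Ifitm3 (-1.25 ± 0.13) and Bst2 (-1.03 ± 0.20) were also lower. Ifit1 (0.25 ± 0.33), Irf7 (-0.48 ± 0.26), Gbp2 (-0.47 ± 0.21), Cxcl9 (0.99 ± 0.45) and Cxcl10 (0.43 ± 0.30) did not pass.

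Tenocytes, the cells of tendon and ligament, held 2 members higher and 21 lower (background 22.1%, with 12.4% of all genes lower). Irf1 was 189 ± 67 CPM against 102 ± 53 CPM (SD, n = 12) with a log2 fold change of 1.09 ± 0.19, and Ifit2 passed at 0.65 ± 0.23. Isg15 was 3.35 ± 2.54 CPM against 25.6 ± 13.5 CPM, lower in 12 of 12 libraries (-2.84 ± 0.44). The largest falls were those of Ifi205 (-3.44 ± 0.24), Ifi203 (-3.22 ± 0.26) and Ifi47 (-3.16 ± 0.83). Ifit1 (-1.48 ± 0.44), Cxcl9 (-2.17 ± 0.77), Cxcl10 (-1.14 ± 0.34), Gbp2 (-1.03 ± 0.23), Irf7 (-0.69 ± 0.28) and Ifitm3 (-0.53 ± 0.13) were lower as well. Ifit3 (0.49 ± 0.30), Igtp (-0.15 ± 0.28) and Bst2 (-0.49 ± 0.20) did not pass.

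Chondrocytes, the cells of cartilage, held 1 member higher and 24 lower (background 48.9%, with 27.5% of all genes lower). Ifitm3 was 82.1 ± 85.2 CPM (SD, n = 8) against 1799 ± 284 CPM (n = 12), a log2 fold change of -4.87 ± 0.20. Usp18, Parp14, Cxcl9 and Ifi44 were at 0 in all 8 chondrocyte libraries, which sets falls of at least 14.7-fold, 7.59-fold, 4.51-fold and 1.77-fold by the limit of 3 counts over the group. The median log2 fold change of the tested members was -2.36, and -2.17 with these 4 genes at their limits. Ifi205 (-5.38 ± 0.42), Ifit1 (-3.94 ± 0.99), Isg15 (-3.17 ± 0.70), Gbp2 (-2.36 ± 0.42), Irf7 (-2.15 ± 0.51) and Bst2 (-1.88 ± 0.31) were lower. Ifit3 (0.33 ± 0.44), Irf1 (-0.42 ± 0.27), Igtp (-0.66 ± 0.44) and Cxcl10 (-0.90 ± 0.46) did not pass, and Irgm2 was higher (1.38 ± 0.41) in 5 of 8 libraries.

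Proliferating cells, named by genes of the cell cycle, held 10 members lower and 0 higher (background 26.8%). Their cluster also had 7 fibroblast markers detected, so these markers did not set it apart from fibroblasts. Of all proliferating cells 69.1% came from the libraries of run 4 to 6. Of 20 dissociation and immediate early genes 16 were lower as well (median log2 fold change -0.85), with sums of 12157 ± 1268 CPM (SD, n = 6) against 21448 ± 4130 CPM (n = 12), and their part in the members' difference was not tested. DESeq2 gave 11 lower and 0 higher, and 14 members had an unadjusted edgeR p under 0.05. Ifi205 was 34.1 ± 12.6 CPM (SD, n = 6) against 231 ± 75 CPM (n = 12), lower in 6 of 6 libraries (-2.80 ± 0.29). Ifi203 (-2.01 ± 0.25), Ifit1 (-1.57 ± 0.48), Gbp2 (-1.27 ± 0.28), Ifit3 (-1.20 ± 0.44), Irf1 (-0.77 ± 0.26) and Ifitm3 (-0.50 ± 0.16) were lower. Isg15 (0.29 ± 0.32), Bst2 (-0.11 ± 0.23), Igtp (-0.46 ± 0.33), Irf7 (-0.61 ± 0.30), Cxcl9 (-0.69 ± 0.66) and Cxcl10 (-0.62 ± 0.38) did not pass.

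In muscle cells 1 member was higher and 8 were lower (background 48.7%). Ifi205 (-4.19 ± 0.42) and Ifi204 (-4.57 ± 0.47) were lower in 9 of 9 libraries, Bst2 (-1.68 ± 0.38) and Ifitm3 (-0.73 ± 0.15) in 8 of 9, and Cmpk2, at 0 in all 9 libraries, was at least 1.38-fold lower. Irgm1 was higher (1.32 ± 0.48) in 5 of 9 libraries. Ifit1 (-0.02 ± 0.72), Ifit3 (0.08 ± 0.66), Isg15 (0.61 ± 0.47), Irf1 (-0.35 ± 0.27), Irf7 (-0.26 ± 0.52), Gbp2 (0.56 ± 0.33), Igtp (-0.07 ± 0.60), Cxcl9 (-2.04 ± 1.75) and Cxcl10 (0.52 ± 0.44) did not pass. Ifi205 and Ifi204 were lower than in fibroblasts in all 8 tested cell types, and no other tested member had the same sign in all 8. They were also low in the unnamed fibroblast-like cells, at 17.9 and 17.4 CPM pooled, against 227 and 87.7 CPM in pooled fibroblasts. Both also varied between fibroblast subsets, as given below.

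Counted per cell, several antiviral members occurred together most often in vascular endothelial cells. The members used were 10 (Ifit1, Ifit2, Ifit3, Isg15, Rsad2, Oasl1, Oasl2, Usp18, Irf7 and Cmpk2), and cells with UMIs of 3 or more of them were counted. They were 495 of 1767 vascular endothelial cells, a share of 28.0% (95% Wilson interval 26.0% to 30.2%), and 238 of 9737 fibroblasts, a share of 2.44% (2.16% to 2.77%). The median depth was 3176 UMIs per vascular endothelial cell and 5593 per fibroblast, so the shallower cells held the larger share. Thinning to 2000 UMIs kept only cells with at least that many, 1566 vascular endothelial cells and 9544 fibroblasts. Among these the shares were 17.6% and 0.754%. The intervals cover counting error only. Lymphatic endothelial cells had a share of 1.61% (3 of 186), below that of fibroblasts, and erythroid cells had 24.6% (15 of 61). In tenocytes the share was 0.570% (10 of 1755) at a median of 4874 UMIs, the lowest among types of over 1000 cells. Fibroblasts with 3 or more of these genes were 2.44% of their cells and held 48.5% of the fibroblast UMIs of the 10 genes. Cells chosen by these genes hold many of their UMIs by that choice, so the share is no evidence of a separate group.

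**Figure D3:**
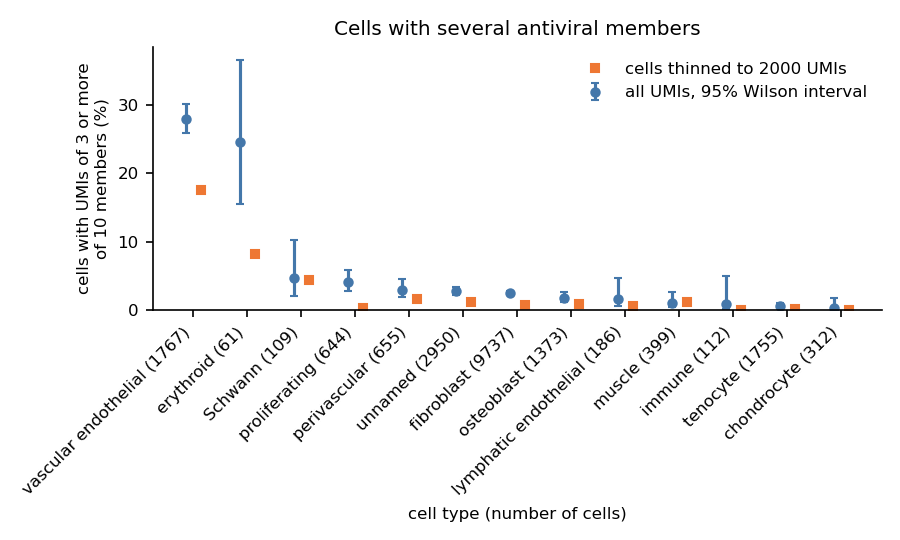
Share of cells with UMIs of 3 or more of 10 antiviral members by cell type, with the number of cells in brackets. Circles are shares with 95% Wilson intervals. Squares are shares after thinning to 2000 UMIs per cell, among cells with at least 2000 UMIs. Vascular endothelial cells stand at 28.0%, and the 61 erythroid cells at 24.6% with a wide interval.

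Lining and sublining fibroblasts of the synovium were next each compared with the remaining fibroblasts. Lining fibroblasts face the joint cavity and are marked by Prg4, whereas sublining fibroblasts marked by Pi16 lie in the connective tissue beneath. The name sublining was given by markers to the cluster led by Pi16, so the remaining fibroblasts can hold other sublining cells. In lining fibroblasts (1098 cells) against all fibroblasts given neither name, 13 of 22 tested members were lower and 0 higher. The background was 30.3% either way and 17.6% lower. DESeq2 also gave 13 lower and 0 higher, and 14 members had an unadjusted edgeR p under 0.05. The median log2 fold change of the tested members was -0.64, beside -0.01 over all genes. The sum without Ifitm3 was 508 ± 104 CPM in lining, 1140 ± 311 in sublining and 1036 ± 167 in other fibroblasts (SD, n = 12).

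The Ifi200 genes differed most. Ifi205 was 11.9 ± 5.1 CPM in lining fibroblasts and 289 ± 130 CPM in the others (SD, n = 12), lower in 12 of 12 libraries with a log2 fold change of -4.62 ± 0.23. Ifi203 (-2.63 ± 0.21) and Ifi204 (-1.81 ± 0.16) were also lower in every library, as was Zbp1 (-1.96 ± 0.29), a sensor of left-handed nucleic acid that can start cell death. Cxcl10 was 24.6 ± 18.4 CPM against 81.1 ± 23.4 CPM (-1.76 ± 0.24), and Ifitm3 999.6 ± 287 CPM against 2012 ± 318 CPM (-1.14 ± 0.08). Gbp2 (-0.74 ± 0.14) was lower too.

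By role, 4 of 6 tested sensors, 3 of 4 regulators, 2 of 2 GTPases, 2 of 6 antiviral effectors, 1 of 3 transcription factors and the tested chemokine were lower in lining fibroblasts. The regulators were Usp18 (-1.21 ± 0.35), Rtp4 (-0.78 ± 0.30) and Xaf1 (-0.51 ± 0.17), lower in 8, 9 and 10 of 12 libraries, and Samd9l, the second effector beside Ifitm3, fell by 0.61 ± 0.19 on the log2 scale. Several effectors did not pass. Isg15 was 31.1 ± 15.7 CPM in lining and 25.8 ± 15.4 CPM in other fibroblasts (0.11 ± 0.19), Ifit1 15.5 ± 15.3 and 13.4 ± 11.7 CPM (-0.06 ± 0.41), and Bst2 93.5 ± 42.1 and 87.7 ± 53.2 CPM (0.06 ± 0.13). Irf7 (-0.28 ± 0.22) and Irf1 (-0.39 ± 0.16) did not pass both thresholds, and Ifit3, Igtp and Cxcl9 had too few counts to be tested in the subsets. Of the other pathway genes, the receptors Ifnar1 (-0.59 ± 0.13) and Ifngr1 (-0.97 ± 0.11) and the adaptor Tmem173 (-1.05 ± 0.19) were lower in lining fibroblasts. Genes of dissociation and immediate early response were lower as well, 11 of 20, and their part in the members' difference was not tested.

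Among the fibroblasts named neither lining nor sublining by their markers, Ifi205 ranged widely between clusters. It averaged 806 CPM in the cluster of which it was the leading gene, 378 and 280 CPM in clusters led by Ccl11 and by Inmt, and 65.1 CPM in a cluster led by Col5a3, of whose cells 74.5% came from the libraries of run 7 to 9. Cxcl10 was also highest in the first of these, at 216 CPM. These cluster means are descriptions, with no test.

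**Figure D4:**
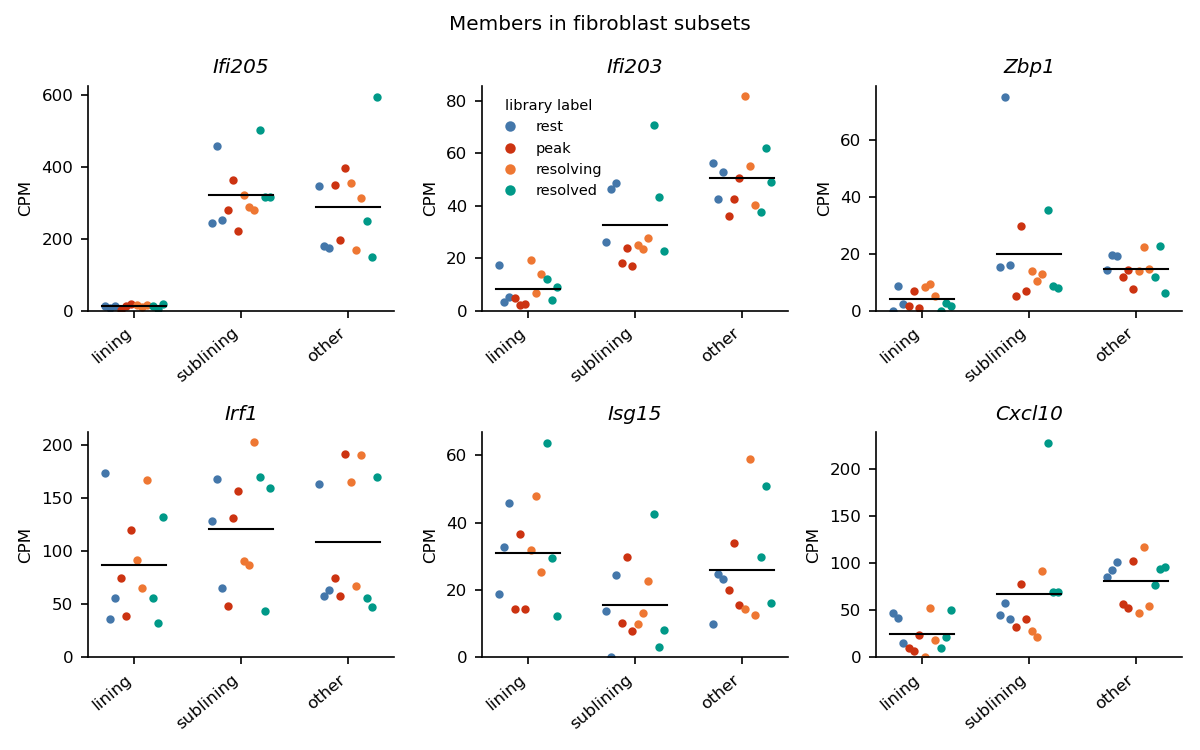
Levels in CPM of 6 members in lining, sublining and other fibroblasts; each point is 1 of 12 libraries coloured by stage label and each bar the mean. Ifi205 averages 11.9 CPM in lining fibroblasts against 289 CPM in other fibroblasts, whereas the ranges of Isg15 overlap in all 3 subsets.

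Sublining fibroblasts (1480 cells) differed less, with 1 of 22 members higher and 2 lower (background 15.2%, with 6.59% higher and 8.6% lower). Usp18 was 26.5 ± 11.6 CPM against 9.93 ± 4.10 CPM (SD, n = 12), higher in 11 of 12 libraries (1.36 ± 0.24). Ifi203 was lower (-1.05 ± 0.18) in 10 of 12 libraries and Isg15 (-0.77 ± 0.25) in 8 of 12. Ifi205 (0.09 ± 0.16), Irf1 (-0.03 ± 0.16), Irf7 (0.15 ± 0.23), Ifitm3 (-0.16 ± 0.08), Bst2 (0.05 ± 0.14), Ifit1 (0.85 ± 0.41), Gbp2 (-0.45 ± 0.15) and Cxcl10 (-0.57 ± 0.23) did not pass both thresholds. Without the library labelled peak replicate 1, 5 members passed, and 5 without rest replicate 1.

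Fibroblasts were also split by Hk2, the hexokinase on which the study centred. Cells with at least 1 UMI of Hk2 (5022 cells, median 6143 UMIs) were compared with cells without one (4715 cells, median 4982 UMIs), so the depths differed. Of 31 tested members 4 were higher and 2 lower in Hk2-positive cells (background 6.05%, with 4.23% of all genes higher and 1.82% lower), and at an unadjusted p under 0.05 there were 19 members against 39.8% of all genes. Ifi203 was 53.7 ± 16.8 CPM against 26.1 ± 6.4 CPM (SD, n = 12) and Ifi205 292 ± 97 against 157 ± 54 CPM, both higher in 12 of 12 libraries with log2 fold changes of 1.15 ± 0.09 and 1.02 ± 0.11. Cxcl10 (0.96 ± 0.22) and Parp14 (0.51 ± 0.16) were higher in 10 and 9 of 12 libraries. Ifit1 was 10.5 ± 9.1 CPM against 21.5 ± 15.1 CPM (-0.85 ± 0.27) and Ifih1 7.04 ± 3.31 against 12.4 ± 5.8 CPM (-0.72 ± 0.14), lower in 10 and 11 of 12. Isg15 (-0.25 ± 0.18), Ifit3 (-0.32 ± 0.19), Irf1 (0.37 ± 0.15), Irf7 (0.09 ± 0.13), Ifitm3 (0.02 ± 0.03), Bst2 (-0.17 ± 0.11), Gbp2 (0.10 ± 0.11) and Igtp (-0.22 ± 0.16) did not pass, and Cxcl9 was not tested. Ifi205 and Ifi203, lower in lining fibroblasts, were thus higher in Hk2-positive fibroblasts. With Hk2-negative cells matched by cluster, 5 members passed.

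Across the stages of arthritis no member passed the test. In fibroblasts 39 members were tested over 11424 genes and 0 passed at the peak, when resolving or when resolved against rest (background 0.0% in each). In vascular endothelial cells 36 members were tested over 6935 genes (Ifi205 was too low), again with 0 in each comparison (background 0.0%). DESeq2 also called 0 members in all 6 comparisons. At an unadjusted edgeR p under 0.05 there was 1 member in fibroblasts at the peak and 0 in the other 5 comparisons, where the shares of all genes at that level were 0.683%, 1.04% and 0.446% in fibroblasts and 1.34%, 2.52% and 1.46% in endothelial cells (peak, resolving and resolved). These fits had no term for the runs described above, and no run held libraries of all 4 stages. With the run as a block, and with the 6 libraries of each comparison alone, 0 members passed in all 6 comparisons too. With 3 libraries a stage and the spread between them, differences that are not small can be missed. In simulated counts 0% of changes of 1 on the log2 scale were recovered at the peak, in fibroblasts and in endothelial cells. The absence of calls therefore does not show that the members were unchanged.

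The lowest unadjusted p was that of Ifit1 in fibroblasts at the peak. It was 18.9, 10.1 and 8.99 CPM in the libraries labelled rest and 4.79, 8.11 and 4.31 CPM in those labelled peak, without overlap (log2 fold change -1.09 ± 0.49, adjusted p = 1 by edgeR). Within run 1 to 3 it was 18.9 CPM at rest and 4.79 at the peak, and within run 4 to 6 it was 10.1 and 8.11 CPM. Ifi47 was next at the peak (-1.27 ± 0.68). Ifit2 at 1.21 ± 0.56 and Ifit1 at 0.85 ± 0.47 had the lowest p when resolving, and Irgm2 (0.67 ± 0.33) and Ifit1 (0.68 ± 0.47) when resolved. Isg15 in fibroblasts was 21.2 ± 7.7 CPM at rest, 21.3 ± 11.1 at the peak, 29.1 ± 20.8 when resolving and 30.7 ± 16.5 when resolved (SD, n = 3). The other members named in every comparison lay within log2 fold changes of -1.82 (Cxcl9 at the peak) and 0.85 (Ifit1 when resolving) in fibroblasts.

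In vascular endothelial cells the lowest p values were those of Bst2 (0.29 ± 0.20) and Ifi44 (-0.61 ± 0.43) at the peak, Samd9l (0.72 ± 0.53) and Igtp (0.53 ± 0.47) when resolving, and Ifit1 (-0.85 ± 0.53) and Ifi44 (-0.63 ± 0.43) when resolved. Isg15 was 400 ± 190 CPM at rest, 457 ± 144 at the peak, 315 ± 47 when resolving and 294 ± 164 when resolved (SD, n = 3), and Irf1 424 ± 233, 532 ± 167, 528 ± 245 and 413 ± 253 CPM. The summed level without Ifitm3 ran from 3384 to 4360 CPM between stage means, with SDs of 713 to 1814 CPM. Within runs, the share of endothelial cells with 3 or more of the 10 antiviral members was 34.9% at rest and 43.5% at the peak in run 1 to 3, and 19.7% and 28.6% in run 4 to 6. These pairs of single libraries were not tested.

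The runs of barcode suffixes were tested jointly and with no limit on fold change, so their counts are not comparable with those by stage. In a model with stage as a covariate, 22 of 39 tested members in fibroblasts differed between the 4 runs at an adjusted p under 0.05 (background 44.6% of all genes) and 18 of 36 in vascular endothelial cells (background 19.1%). Beside these backgrounds the members' shares were 56.4% and 50%. Which step of the work the runs reflect was not tested.

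Isg15 in fibroblasts was 12.4 to 16.9 CPM in the libraries of run 1 to 3, 24.7 to 33.9 in run 4 to 6, 26.6 to 53.1 in run 7 to 9 and 13.2 to 19.1 in run 10 to 12 (adjusted p = 3.13e-05 by edgeR). Bst2 was also highest in run 7 to 9, with run means of 62.9, 108, 148 and 40.3 CPM (adjusted p = 0.000366). Irf1 went the other way, at 68.7 to 156 CPM, 58.0 to 58.8, 45.7 to 68.3 and 158 to 186 CPM (adjusted p = 6.65e-05). Ifi44, Usp18 and Rtp4 were the next by p. Ifi205 (run means 281, 200, 149 and 294 CPM) and Cxcl10 (48.7, 71.2, 89.6 and 67.2 CPM) passed as well, whereas Ifit1, Ifit3, Irf7, Ifitm3, Gbp2, Igtp and Cxcl9 did not. Of the 22 members, 8 were highest in run 1 to 3, 11 in run 7 to 9, 2 in run 10 to 12 and 1 in run 4 to 6. The sum of dissociation and immediate early genes was 24797, 17342, 18770 and 24883 CPM in the same order, the order of Irf1 and not of Isg15. Of 5 tested erythroid genes 4 differed by run, with sums of 226, 751, 481 and 1193 CPM, and of 2 tested immune markers Cd74 did. Fibroblast clusters were also spread unevenly over the runs. Run 4 to 6 gave 88.8% of the cells of cluster 6, led by Cxcl5, and run 7 to 9 gave 74.5% of cluster 8, led by Col5a3, where Bst2 averaged 112 and 161 CPM against 45.4 CPM in the cluster led by Ifi205. The part of these genes and clusters in the members' difference by run was not tested.

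Of the 18 members that passed in vascular endothelial cells, 14 were highest in run 1 to 3 and 4 in run 10 to 12. Irf1 had run means of 623, 294, 283 and 696 CPM (adjusted p = 0.000115), Irf7 156, 60.1, 95.5 and 94.9 CPM (0.00265), and Igtp 83.9, 32.2, 41.2 and 59.4 CPM (0.00893). Xaf1, Cmpk2 and Ifit3 completed the 6 lowest p values. Isg15 was 309 to 624 CPM in run 1 to 3 and 188 to 376 CPM in run 4 to 6 (0.0312), the reverse of the order in fibroblasts, a difference that was not tested. Cxcl9 passed, and Ifit1, Bst2, Gbp2, Cxcl10 and Ifitm3 did not. Dissociation and immediate early genes summed to 44391, 25176, 28243 and 47376 CPM in these runs. Of 4 tested erythroid genes 2 differed by run, with sums of 501, 1874, 774 and 946 CPM. Cluster 9, which held the higher levels, gave 81 to 103 cells a library and cluster 16 gave 36 to 43 in run 1 to 3. In run 4 to 6 they gave 24 to 45 and 48 to 92 cells, in run 7 to 9 27 to 41 and 44 to 90, and in run 10 to 12 155 to 273 and 31 to 58. The part of these genes and of this mix in the members' difference by run was not tested. The share of endothelial cells with 3 or more of the 10 antiviral members was 30.8% to 43.5% in the libraries of run 1 to 3, 13.9% to 28.6% in run 4 to 6, 23.9% to 36.3% in run 7 to 9 and 25.6% to 27.1% in run 10 to 12. Without the library labelled rest replicate 1, 5 members passed in endothelial cells, and 7 without rest replicate 2, 9 without resolved replicate 3 and 10 without resolved replicate 1.

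**Figure D5:**
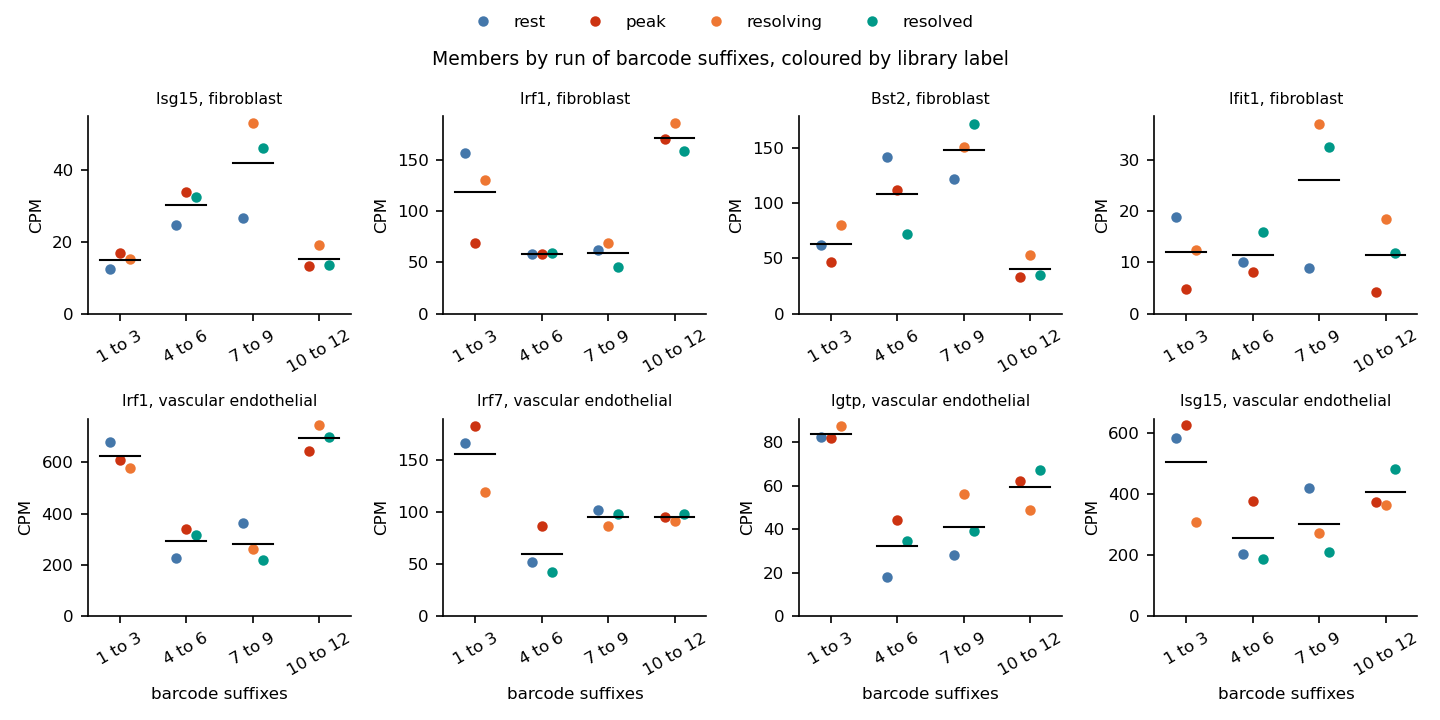
Levels in CPM of members in fibroblasts (top) and vascular endothelial cells (bottom) by run of barcode suffixes; each point is 1 library coloured by stage label and each bar the mean of 3 libraries. In fibroblasts Isg15 is high in runs 4 to 6 and 7 to 9 and Irf1 in run 10 to 12, and in endothelial cells Irf1 is high in runs 1 to 3 and 10 to 12.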

How the data were processed

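The deposited values were whole-number counts of UMIs per gene and cell, which the authors made with Cell Ranger 2.1.1 on mm10. Cells were kept by the study's limits of 500 to 5000 genes, at least 500 UMIs and an upper limit of UMIs. That upper limit was 40000 for libraries labelled peak, 25000 to 30000 for resolving and 20000 for rest and resolved. It was thus tied to the stage label. Every library had the same median UMI count per deposited cell, so the counts may have been brought to a common depth before deposit and totals may not be the sequenced depth. Clustering used scanpy 1.11.5 and Leiden at resolution 1, with 2000 variable genes and 30 principal components. Putative doublets (6% of cells) were kept, and removed as an alternative. Clusters were named by fixed markers, so cell types are resemblances and may differ from the study's names.

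Counts were summed per library and type (at least 10 cells) and tested with edgeR 4.0.16 in R 4.3.3 (quasi-likelihood test, TMM, low counts filtered, Benjamini-Hochberg over all genes). A member was called at adjusted p under 0.05 and a log2 fold change over 0.5, and run tests at adjusted p under 0.05 alone. Library was a block for cell type, subset and Hk2, and stage fits held all 12 libraries with no run term. A library pools 3 animals and is the replicate. The labels do not say more of how replicates were separated, so p-values measure the spread between libraries. Samples with the same number correlated between -0.59 and 0.71 in their deviations, so numbers were not taken as pairs. The 3 largest consistent changes each way and 12 fixed members were named in each comparison. Members and lists were chosen with earlier results of these data known. Alternatives covered scaling (RLE, DESeq2 1.42.0), filters, clustering, depth, blocks and single libraries, and fibroblasts defined more broadly, which was added after the data were seen. Scripts were tested on simulated counts. Positions came from GENCODE M21, which held 27645 of the 27998 gene IDs.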

Additional observations from a re-analysis of the deposited data

Results flagged for a closer look

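Values below stood apart from the other libraries of their cell type by Dixon's test, and 49 groups were tested. The test flags about 1 in 20 groups by chance when values are normally distributed. Sparse counts are not, so the share flagged by chance here is not known. Where all other libraries are at 0, as for Cxcl9 in muscle cells, 1 UMI is always flagged. In chondrocytes the library labelled peak replicate 2 was highest for Ifit3 (112 CPM, 6 UMIs), Isg15 (37.3 CPM, 2 UMIs), Irf1 (131 CPM, 7 UMIs), Ifitm3 (280 CPM, 15 UMIs), Gbp2 (37.3 CPM, 2 UMIs) and the sum of members (783 CPM). That library held only 10 chondrocytes. Ifit1 stood apart in resolved replicate 2 at 7.64 CPM, which was 1 UMI. In lymphatic endothelial cells the library labelled rest replicate 1 was highest for Ifit3 (29.7 CPM, 2 UMIs) and Gbp2 (89.2 CPM, 6 UMIs). In muscle cells rest replicate 1 was highest for Ifit3 (49.98 CPM), Irf7 (43.7 CPM), Ifitm3 (1818 CPM) and Ifi205 (62.5 CPM), and rest replicate 3 for Ifit1 (116 CPM), Cxcl9 (10.6 CPM, 1 UMI) and Cxcl10 (498 CPM, 47 UMIs).

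In 2 of 96 checks the direction of a difference changed between stages in every library of the stages named, and these changes were not tested. Irf7 in osteoblasts minus fibroblasts averaged 5.19 CPM at rest and -2.39, -7.03 and -5.80 CPM at the peak, when resolving and when resolved, a gap of 10.3 CPM between rest and the mean of the later stages. Isg15 in Hk2-positive minus Hk2-negative fibroblasts averaged 1.71 CPM at rest and -23.3 CPM when resolved, 25.0 CPM apart. Among cells outside the comparisons, 24.6% of erythroid cells and 2.68% of unnamed cells had UMIs of 3 or more of the 10 antiviral members.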

How the results depend on the processing

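Across all alternatives, 386 counts of called members stayed within 1.5 times the reported count and 18 did not. The 386 include the stage comparisons, in which 0 members were called each time. Of the values of single members, 5242 were counted as unchanged, including those that passed neither time, whatever their direction. A further 78 passed only in the alternative and 79 only as reported. The 1 that reversed was Cxcl9 in proliferating cells, at 1.12 with clustering at resolution 0.5. That clustering gave 19 called members in proliferating cells and no sublining group. With cells thinned to 2000 UMIs, fewer members could be tested, and 23 of 23 were called in vascular endothelial cells, 15 of 23 in chondrocytes, 14 of 23 in perivascular cells, 5 of 8 in lining fibroblasts, and 10 of 32 and 2 of 29 by run in fibroblasts and endothelial cells. Without a filter on low counts 24 were called in lining and 9 in sublining fibroblasts. DESeq2 called 6 by run in endothelial cells, against 18, and the cause was not tested.

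A replicate block left 14 members by run in fibroblasts and 7 in endothelial cells, and 0 in all stage comparisons. Leaving out single libraries gave 5 to 24 members by run in endothelial cells, 16 to 28 by run in fibroblasts, 11 to 14 in lining and 2 to 5 in sublining fibroblasts, 5 to 8 by Hk2, 36 to 37 in vascular endothelial cells, 22 to 26 in chondrocytes, 15 to 21 in perivascular cells and 0 in every stage comparison. In simulated counts no stage change of 1 on the log2 scale was recovered and 90% to 93% of changes of 3 were. Of the simulated calls by run, 7.21% to 10.9% were false. The smallest cell types rest on few UMIs a library.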

Other observations

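Small groups of cells were not tested. Schwann cells held 1542 ± 216 CPM of members without Ifitm3 (SD, n = 3), immune cells, which the sort should have removed, 571 ± 135 (n = 3), and erythroid cells 886 and 913 CPM in the 2 libraries with at least 10 of them. Of 61 erythroid cells 15 had UMIs of 3 or more of the 10 antiviral members, 24.6% with a 95% Wilson interval of 15.5% to 36.7%, and the share was 8.20% after thinning to 2000 UMIs. The most members seen in 1 erythroid cell was 5 of the 10, against 10 in a vascular endothelial cell and in a fibroblast.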
